A study of Homo sapiens with 4 samples.

Results

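The CXCL neutrophil-attracting chemokines are 7 genes, CXCL1, CXCL2, CXCL3, CXCL5, CXCL6, CXCL8 and CXCL16, out of the 18134 genes of the deposited expression table of PC9 cells, an established human lung adenocarcinoma line. They were chosen by symbol, as ligands of the receptor CXCR2 together with CXCL16, and with the values of these libraries in view, because CXCL1 stood out among the genes with more RNA after TPX2 knockdown. Their differences between the groups are therefore a description, and where members are counted at the threshold of a test the count stands beside that of all genes and carries no evidence of its own. In all, 6 of the 7 genes had a row in the table and 5 passed the filter on low counts, while the expression of CXCL6 was not analysed here and CXCL5 had too few counts to pass the filter.

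The control cells (shNC) carried a lentiviral hairpin with no intended target, and the knockdown cells (shTPX2) carried a hairpin against TPX2, which encodes a spindle assembly factor. Both lines were stable populations made by lentiviral infection and drug selection from pLKO.1 vectors with puromycin resistance, so both groups share the vector and the selection. The shTPX2 group rests on 1 hairpin sequence. Polyadenylated RNA was sequenced from 2 libraries per group, 4 in all, which the labels place in 1 batch, and the labels do not say whether the libraries of a group came from separate cultures, so the spread between them may be technical.

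CXC chemokines are small secreted proteins that guide leukocytes. CXCL1, CXCL2, CXCL3, CXCL5, CXCL6 and CXCL8 share an ELR motif near the amino terminus and bind CXCR2 on neutrophils, and CXCL6 and CXCL8 also bind CXCR1. In epithelial cells their genes are classical targets of NF-κB, induced by interleukin-1, interleukin-17 and tumour necrosis factor, and AU-rich elements shorten the life of many of their mRNAs. CXCL16 is a different kind of molecule: it has no ELR motif, is made as a transmembrane protein, binds CXCR6 on lymphocytes, and is released by the proteases ADAM10 and ADAM17.

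The 6 ELR chemokine genes lie together on chromosome 4, and the stretches directly before their transcription starts are shown because they carry a 9-base element that all of them share. Each run holds the 150 bases before the start that RefSeq annotates in GRCh38.p14, read 5′ to 3′ on the strand of the gene. Capitals mark GGAATTTCC, part of the κB sequence that NF-κB binds, and, where present, the TATAAA box and the AP-1 motif TGANTCA. The runs lie at chr4:73869243-73869392 on the plus strand for CXCL1, chr4:74099196-74099345 on the minus strand for CXCL2, chr4:74038690-74038839 on the minus strand for CXCL3, chr4:73998678-73998827 on the minus strand for CXCL5, chr4:73836528-73836677 on the plus strand for CXCL6 and chr4:73740419-73740568 on the plus strand for CXCL8.
CXCL1: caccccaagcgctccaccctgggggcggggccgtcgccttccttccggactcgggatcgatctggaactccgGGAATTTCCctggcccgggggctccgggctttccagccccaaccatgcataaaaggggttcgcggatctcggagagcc
CXCL2: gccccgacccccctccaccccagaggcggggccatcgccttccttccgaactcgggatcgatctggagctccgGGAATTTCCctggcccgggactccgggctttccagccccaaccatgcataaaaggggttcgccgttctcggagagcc
CXCL3: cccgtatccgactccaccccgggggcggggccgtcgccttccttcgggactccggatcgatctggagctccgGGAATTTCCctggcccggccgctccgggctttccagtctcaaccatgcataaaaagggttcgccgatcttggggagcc
CXCL5: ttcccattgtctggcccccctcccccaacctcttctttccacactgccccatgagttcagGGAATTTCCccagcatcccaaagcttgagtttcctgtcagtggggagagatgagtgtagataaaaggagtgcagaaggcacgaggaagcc
CXCL6: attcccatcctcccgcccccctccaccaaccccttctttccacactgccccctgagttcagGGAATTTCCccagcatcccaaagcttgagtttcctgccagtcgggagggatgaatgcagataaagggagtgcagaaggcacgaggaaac
CXCL8: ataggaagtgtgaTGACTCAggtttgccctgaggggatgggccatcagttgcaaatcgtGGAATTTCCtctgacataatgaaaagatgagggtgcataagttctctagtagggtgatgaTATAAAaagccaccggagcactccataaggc

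GGAATTTCC, searched on both strands from 250 bases before to 50 bases after the start, was found in 162 of 35116 promoters (0.461%) and in all 6 of these. Counted from the start, its first base lay at -78 in CXCL1 and CXCL3, -77 in CXCL2, -90 in CXCL5, -89 in CXCL6 and -91 in CXCL8. The longer NF-κB consensus, which overlaps this element, was matched on both strands in each of the promoters except that of CXCL8, and in 11.3% of all promoters. TATAAA and TGANTCA matched in the CXCL8 promoter, against 11.5% and 7.71% of all promoters, and did not match in the other 5. A match describes the letters of the reference and is no evidence of binding in PC9 cells. GGAATTTCC was shown because all 6 promoters carry it, so its count among them is a description. The printed runs of CXCL1, CXCL2 and CXCL3 are alike over long stretches, as are those of CXCL5 and CXCL6, so the matches are not independent. A promoter of CXCL16 was not analysed here.

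The 3′ untranslated regions of the ELR chemokines, taken from the GENCODE v29 transcript with the longest one, were dense in ATTTA, the core of AU-rich elements. CXCL2 held 10 copies in 721 bases and CXCL3 held 7 in 673 bases, or 13.9 and 10.4 copies per kilobase. CXCL8 had 7.19, CXCL1 7.08, CXCL5 5.51 and CXCL6 5.36 copies per kilobase. The median over 12726 tested genes with at least 200 bases of this region was 1.71 per kilobase, and CXCL16 had 1.02. The density of each ELR chemokine lay above that of at least 94.1% of those genes, while 36.1% had a lower density than CXCL16.

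Depth was close to even, with totals of 20906441 to 21972583 expected counts per library. TPX2 itself measured 55.01 and 111.85 TPM in shNC 1 and 2, against 43.35 and 43.77 TPM in shTPX2 1 and 2, where TPM is a level scaled for gene length and library total. TPX2 RNA was thus lower in each knockdown library than in each control, with a factor of 2.03 between the controls themselves, and edgeR gave a log2 fold change of -0.81 ± 0.32 (SE, adjusted p = 0.618). The cells carried abundant epithelial RNA, with KRT8 at 8228 to 11388 TPM and EPCAM at 201 to 293 TPM, whereas the lung lineage genes NKX2-1, NAPSA and SFTPB stayed at or below 1.67 TPM in every library. Of 14 markers of other cell types, 8 or 9 were under 1 TPM in each library. The leukocyte marker PTPRC measured 0.28 to 0.69 TPM, and LUM of fibroblasts was listed at 0 in all 4 libraries. Other markers of the list were expressed. CD14 measured 6.40 to 27.3 TPM, COL1A1 5.72 to 12.0 TPM, PECAM1 4.20 to 14.4 TPM and CDH5 14.4 to 30.5 TPM. The summed level of the 14 markers ran from 162 to 295 TPM in shNC and from 228 to 236 TPM in shTPX2, most of it from CD68. Without CD68 it was 36.4 and 74.6 TPM in shNC 1 and 2, against 45.2 and 60.1 TPM in shTPX2 1 and 2. In bulk RNA, more expressing cells and more RNA per cell cannot be told apart.

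CXCL1 was the member with the largest difference and the steadiest shTPX2 values. Its levels were 31.33 TPM in shNC 1 and 47.75 TPM in shNC 2, against 185.91 TPM in shTPX2 1 and 202.48 TPM in shTPX2 2. Both knockdown libraries stood far above both controls, and the gap between the groups was several times the gap between the control libraries. The group means were 39.5 ± 11.6 TPM and 194 ± 11.7 TPM (SD, n = 2 each), a ratio of 4.91. The log2 fold change fitted by edgeR on the expected counts was 2.42 with a standard error of 0.23. The underlying counts were 376 and 568 in shNC and 2349 and 2452 in shTPX2.

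CXCL8, which encodes interleukin-8 and is the best known neutrophil attractant of the family, was the most abundant ELR chemokine of the control cells. Its levels were 57.25 and 93.69 TPM in shNC 1 and 2, against 192.96 and 133.69 TPM in shTPX2 1 and 2. The groups did not overlap, yet the libraries within each group were further apart than for CXCL1, with a factor of 1.64 between the shNC and 1.44 between the shTPX2 libraries. The means were 75.5 ± 25.8 TPM and 163 ± 41.9 TPM (SD, n = 2 each), and the fitted log2 fold change was 1.17 ± 0.30 (SE).

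CXCL2 and CXCL3, the closest relatives of CXCL1, were expressed at a small fraction of its level. CXCL2 measured 2.33 and 1.94 TPM in shNC 1 and 2, against 5.75 and 5.03 TPM in shTPX2 1 and 2. These groups did not overlap, and the fitted log2 fold change was 1.45 ± 0.40 (SE). CXCL3 measured 0.96 and 1.33 TPM under shNC against 1.51 and 1.26 TPM under shTPX2. Its groups overlapped, since shTPX2 2 lay below shNC 2, and its log2 fold change of 0.40 was smaller than its standard error of 0.48. Between 11.4 and 19.0 expected counts stood behind each CXCL3 value, the fewest of the 5 fitted members.

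CXCL5 was close to the detection limit in every library. It had 1 count in each shNC library, 4.98 in shTPX2 1 and 3.01 in shTPX2 2, or 0.04, 0.04, 0.18 and 0.11 TPM. Summed over libraries, 8 rounded counts in shTPX2 against 2 in shNC gave a ratio of 4.01 per total count, with an exact 95% binomial interval of 0.8 to 38.7 that covers counting error only.

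CXCL16, which has no ELR motif, had levels that did not separate the groups, as was also the case for the ELR chemokine CXCL3. It measured 101.8 and 136 TPM in shNC 1 and 2, against 121.11 and 98.31 TPM in shTPX2 1 and 2. The lowest and the highest library were shTPX2 2 and shNC 2, and each group held 1 of the middle values. The log2 fold change was 0.01 ± 0.21 (SE).

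**Figure D1:**
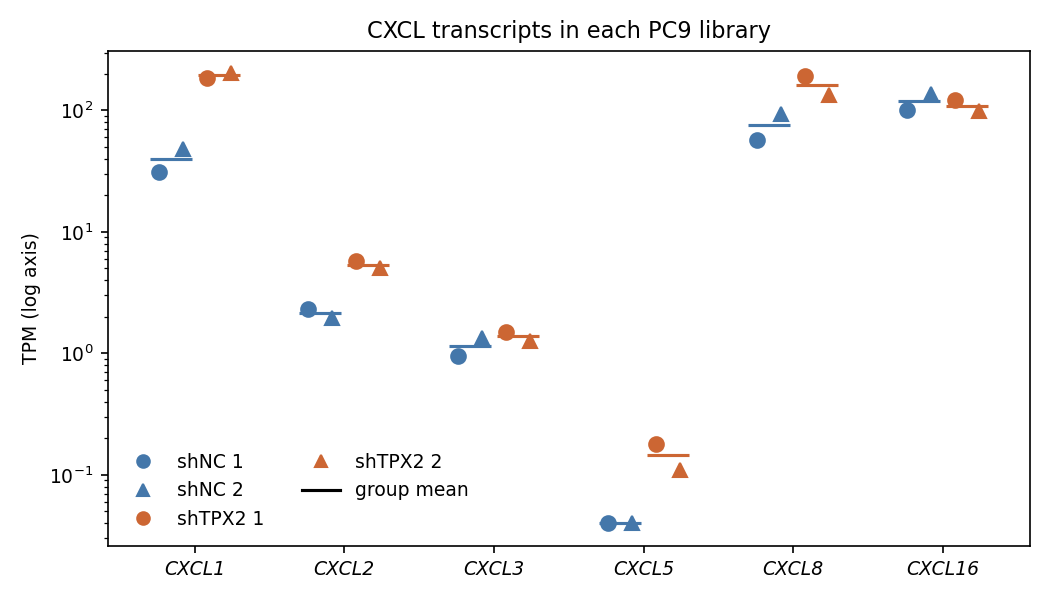
TPM on a log axis for the 6 CXCL genes with a row in the table, with circles for library 1, triangles for library 2 and lines for the means of shNC (blue) and shTPX2 (orange). CXCL1, CXCL2, CXCL5 and CXCL8 show both orange points above both blue points, whereas the points of CXCL3 and CXCL16 interleave.

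In order of mean level per length, the control cells had CXCL16 (119 TPM) above CXCL8 (75.5), CXCL1 (39.5), CXCL2 (2.13), CXCL3 (1.15) and CXCL5 (0.04). The lowest CXCL16 library of shNC, at 101.8 TPM, lay above the highest CXCL8 library at 93.69 TPM. Across libraries, CXCL8 in shNC 1 and CXCL1 in shNC 2 differed by less than the spread of CXCL8. Within each shNC library CXCL8 lay above CXCL1, at 57.25 against 31.33 TPM in shNC 1 and 93.69 against 47.75 TPM in shNC 2. In shTPX2 the order at the top was CXCL1 (194 TPM), CXCL8 (163) and CXCL16 (109.7), and the CXCL8 values spanned 133.69 to 192.96 TPM, so that CXCL1 and CXCL8 did not differ beyond their spread. Among all genes of a library, CXCL1 ranked 4839 and 3478 by TPM in shNC 1 and shNC 2, and 818 and 771 in shTPX2 1 and shTPX2 2.

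Taken as a sum, the CXCR2-ligand transcripts measured 91.9 and 145 TPM in shNC 1 and 2, against 386 and 343 TPM in shTPX2 1 and 2. The make-up of this sum differed as well as its size. CXCL8 accounted for 62.3% and 64.7% of it in the shNC libraries, and for 49.9% and 39.0% in the shTPX2 libraries. CXCL1 accounted for 34.1% and 33.0% in shNC and for 48.1% and 59.1% in shTPX2. The ratio of CXCL1 to CXCL8 was 0.547 and 0.51 in shNC 1 and shNC 2, and 0.963 and 1.51 in shTPX2 1 and shTPX2 2. The ratio was thus almost the same in both control libraries although each gene differed between them, and it was less even between the knockdown libraries. CXCL2, CXCL3 and CXCL5 together made up 1.87% to 3.62% of the sum.

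**Figure D2:**
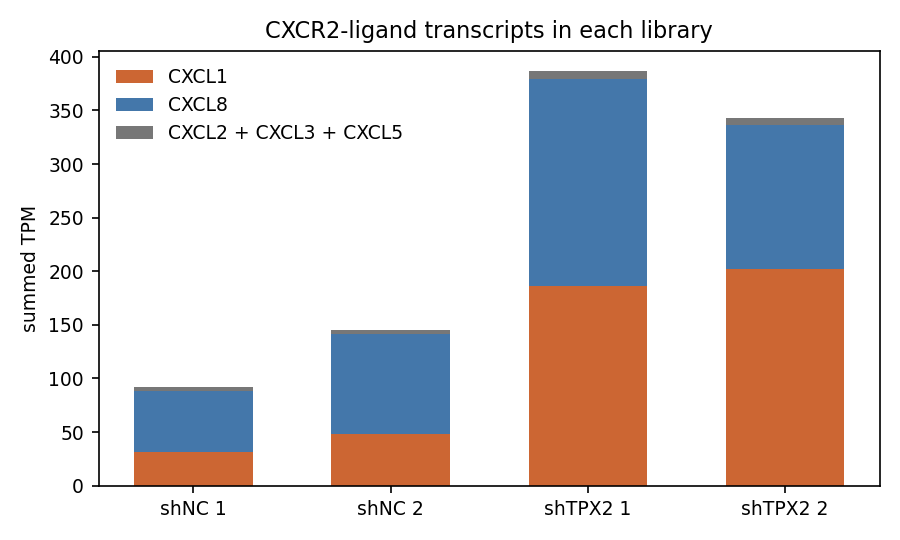
Summed TPM of the CXCR2-ligand transcripts in each library, stacked as CXCL1 (orange), CXCL8 (blue) and CXCL2, CXCL3 and CXCL5 together (grey). The bars of the shNC libraries reach 91.9 and 145 TPM and those of the shTPX2 libraries 386 and 343 TPM, with CXCL1 a larger part of the latter.

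Near-identical sequence can blur values within this family. Of the 50-base windows of the longest CXCL1 transcript, 5.72% occurred exactly in a CXCL2 transcript, and 9.24% of those of CXCL2 occurred in CXCL1 or CXCL3. No window of 100 bases was shared between any of the 7 genes (0% in each). The expected counts of CXCL1, CXCL2, CXCL3 and CXCL16 were not whole numbers in any library, while those of CXCL8 were whole in all 4. Counts that are not whole were common, at 42.2% to 44.6% of all genes in a library. CXCL16 had them and CXCL8 did not, although for both 0% of the 50-base windows occurred in another member. Whether such counts mark shared family sequence was not tested. With the counts of CXCL1, CXCL2 and CXCL3 summed and fitted as 1 gene, the log2 fold change was 2.35, against 2.42 for CXCL1 alone.

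Set against the whole table, 3 of the 5 fitted members, CXCL1, CXCL2 and CXCL8, met the criteria that the study's methods give for differential expression, limma after the voom transformation with limits on p and on the log fold change. The limits were read here as an unadjusted p up to 0.1 and a log2 fold change of 0.3 or more in either direction, since the methods give neither the log base nor an adjustment. All 3 were higher in shTPX2, as were 6.24% of the 14048 tested genes, while 7.99% met the criteria with lower values. In TPM the same 3 members had both shTPX2 libraries above both shNC libraries, which held for 10.7% of tested genes, and the reverse order held for 30.3%. By the quasi-likelihood test of edgeR, adjusted after Benjamini and Hochberg, 0 of the 5 members and 0% of all genes had an adjusted p under 0.05. At an unadjusted p under 0.05 the same test gave 440 genes higher and 688 lower, and DESeq2 gave 111 genes at an adjusted p under 0.05. The members were selected on this contrast, so nothing is read from their share. Over the 5 members the log2 fold change had a median of 1.17, and over all tested genes of -0.01. With 2 libraries against 2, an exact permutation test of a single gene cannot go below 0.333.

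Leaving out a control library moved the log2 fold changes of the 5 members over a wider range than leaving out a knockdown library. The log2 fold change of CXCL1 was 2.73 without shNC 2 and 2.18 without shNC 1, and that of CXCL8 was 1.60 and 0.85. For CXCL2 the corresponding values were 1.30 and 1.61, in the opposite order. CXCL3 had 0.18 without shNC 1, 0.24 without shTPX2 1 and 0.67 without shNC 2, and CXCL16 ran from -0.18 to 0.23. In each of these 4 fits the group left with 1 library was assumed to vary like the other.

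**Figure D3:**
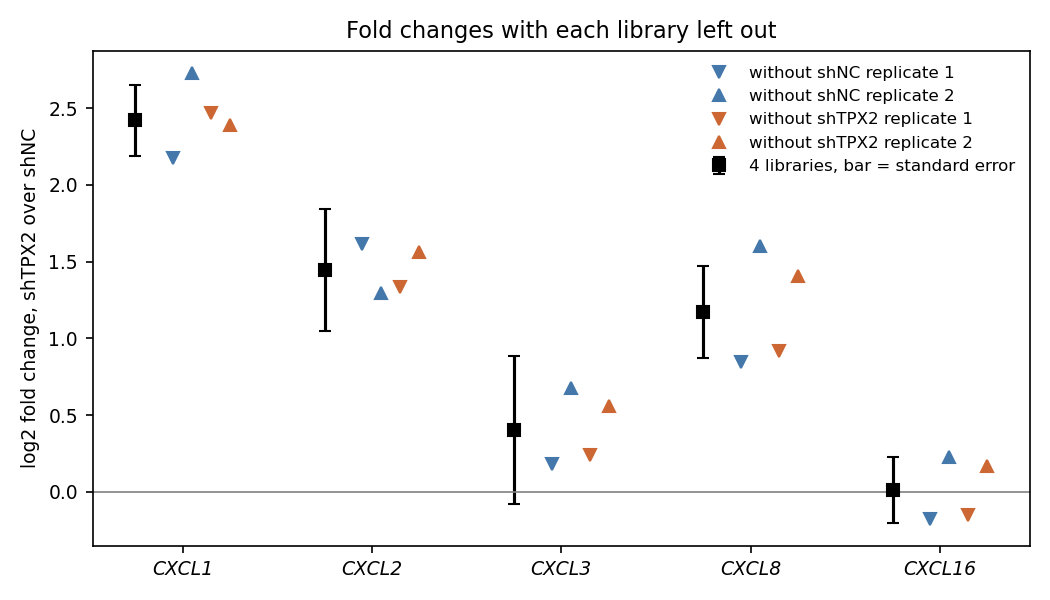
Log2 fold change (shTPX2 over shNC, edgeR) of the 5 fitted CXCL genes from all 4 libraries (black squares, bar = standard error) and with each library left out (coloured triangles). The values of CXCL1 stay between 2.18 and 2.73, whereas those of CXCL16 lie on both sides of 0.

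The ELR chemokine genes span 359 kb of chromosome 4 (GRCh38.p14), from CXCL8, which starts at 73740569, to CXCL2, which ends at 74099195, and CXCL16 lies on chromosome 17 from 4733533 to 4739928. Within this span and 500 kb on either side, the table held 10 other genes, of which 6 were fitted. Of these, 0 met the criteria as higher and 0 as lower. PF4 and PPBP, platelet chemokines that sit between CXCL1 and CXCL5, were nearly silent, with PF4 listed at 0 in all 4 libraries and PPBP at no more than 0.07 TPM. MTHFD2L, a mitochondrial folate enzyme next to CXCL2, measured 3.82 and 4.21 TPM under shNC against 4.22 and 4.37 TPM under shTPX2, a log2 fold change of 0.08 ± 0.32 (SE). EREG and AREG, which encode ligands of the EGF receptor further along the chromosome, had log2 fold changes of 0.12 and -0.49 with standard errors of 0.28 and 0.50.

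**Figure D4:**
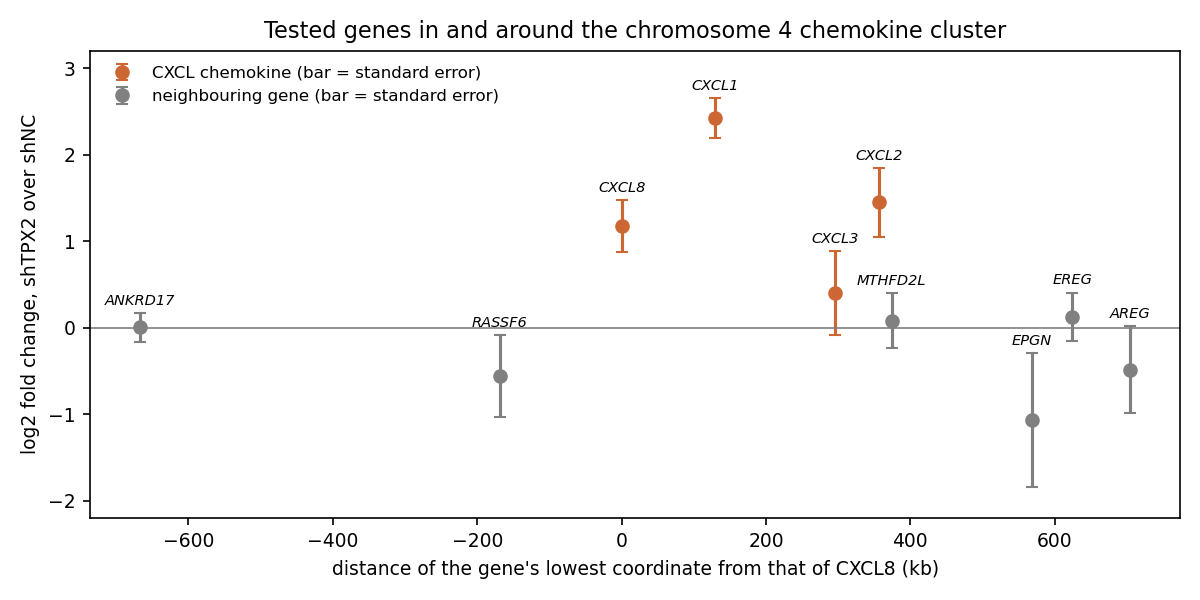
Log2 fold change (shTPX2 over shNC, edgeR, bar = standard error) of tested genes against distance from CXCL8 in kilobases, with CXCL chemokines in orange and neighbouring genes in grey. CXCL1, CXCL2 and CXCL8 lie above 1, while the highest of the 6 neighbours, EREG, has 0.12.

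The pathway around these chemokines was followed with gene lists from receptors to RNA-binding proteins. Lists of epithelial markers and of markers of other cell types were added, 11 lists in all. The lists were chosen with earlier results of these data known, so nothing is read from their shares. They hold 170 genes, of which 155 had a row and 120 were fitted. Of the 120, 15 were higher and 6 lower in shTPX2 at the criteria above (background 6.24% and 7.99% of tested genes), and 0 had an adjusted p under 0.05 in edgeR, with 10 higher and 3 lower at an unadjusted p under 0.05. Among the 21 genes at the criteria, 18 lost the call when 1 of the 4 libraries was left out, and CDH5, FOSB and FOSL1 kept it in each case. CDH5, among the higher genes, and PDGFRB, among the lower, are markers of other cell types and not pathway genes. MMP1 and PDGFRB, both lower, passed the filter on low counts only through the shNC libraries, where they were higher. Adjusted p-values of these 21 genes in edgeR ran from 0.439 to 0.719.

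The receptors for the ELR chemokines were barely expressed in the PC9 cells. CXCR2 measured 0.13 and 0.35 TPM under shNC against 0.20 and 0.32 TPM under shTPX2, CXCR1 no more than 0.08 TPM, and CXCR6, the CXCL16 receptor, no more than 0.15 TPM in any library. Of 7 fitted chemokine receptors, 1 was higher and 0 were lower, and the median log2 fold change was 0.17. The higher one was ACKR2, a scavenging receptor for CC chemokines, at 8.29 and 9.05 TPM under shNC against 13.26 and 12.01 TPM under shTPX2. Its log2 fold change was 0.67 ± 0.21 (SE, adjusted p = 0.579 in edgeR), and it no longer met the criteria without shTPX2 1.

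Other CXC chemokines were mostly silent, while several CC chemokines were expressed. Of 8 other CXC chemokines with a row, 7 had at most 3 counts in every library, among them CXCL10 and CXCL11, which are induced by interferon. The remaining one, CXCL17, measured 11.24 to 72.24 TPM. Of 13 CC, CX3C and XC chemokines with a row, 5 had at most 3 counts in every library. Of 7 fitted CC, CX3C and XC chemokines, 1 was higher and 0 were lower, and the median log2 fold change was 0.15. This was CCL20, an attractant of CCR6-bearing lymphocytes and like CXCL1 a target of interleukin-17 and NF-κB, with 2.00 and 3.44 TPM under shNC against 10.58 and 4.43 TPM under shTPX2. The groups did not overlap, but the log2 fold change of 1.60 ± 0.58 (SE, adjusted p = 0.597 in edgeR) was 0.81 without shTPX2 1, and the call was lost without that library or shNC 1. CCL5, with 4.78 and 4.46 TPM under shNC against 4.81 and 5.84 TPM under shTPX2, did not meet the criteria. CCL22 measured 4.34 and 32.94 TPM under shNC against 10.35 and 9.06 TPM under shTPX2, and CCL28 6.29 and 8.21 against 8.15 and 7.15 TPM. The groups of both overlapped, and neither met the criteria.

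The list of cytokines that induce the ELR chemokines also holds their receptors, adaptors and antagonists, and of its 24 fitted genes 4 were higher in shTPX2 and 1 was lower. The median log2 fold change over the list was 0.11. IL1A measured 0.29 and 0.63 TPM under shNC against 1.30 and 0.55 TPM under shTPX2, IL1B 0.90 and 7.82 against 9.14 and 3.26 TPM, and TNF 18.08 and 19.82 against 33.46 and 15.23 TPM. The groups overlapped for each of these. IL17C, an epithelial cytokine of the interleukin-17 family, was higher, with 7.86 and 4.63 TPM under shNC against 24.26 and 9.27 TPM under shTPX2. Its log2 fold change was 1.55 ± 0.55 (SE, adjusted p = 0.596 in edgeR) and 0.67 without shTPX2 1, and the call was lost without that library or shNC 2. IL1RN and IL36RN, which encode antagonists of the interleukin-1 and interleukin-36 receptors, were also higher, with log2 fold changes of 1.19 and 0.76, although the groups of IL36RN overlapped. That of IL1RN was 0.61 without shTPX2 2, and that of IL36RN ran from 0.26 without shNC 2 to 1.53 without shNC 1, and both calls were lost without shNC 2 or shTPX2 2. The kinase gene IRAK1 had 0.55, or 0.35 without shNC 2, and lost the call without that library or shTPX2 1. IL18 was the lower gene, at -0.76, and its value was -0.37 without shNC 1 and -1.26 without shTPX2 1, with the call lost without shNC 1 or shTPX2 2.

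Among the 20 NF-κB genes, NFKBIA, NFKBIB, NFKBID and NFKBIZ were higher and CYLD was lower. These 4 encode IκB proteins, but the IκB genes did not share a direction, since NFKBIE measured 9.28 and 15.76 TPM under shNC against 7.43 and 8.67 TPM under shTPX2 (log2 fold change -0.51) and BCL3 had a log2 fold change of 0.07, and neither met the criteria. NFKBIA measured 319 and 261 TPM under shNC against 428 and 340.2 TPM under shTPX2, a log2 fold change of 0.53 ± 0.21 (SE, adjusted p = 0.621 in edgeR) that was 0.34 without shTPX2 1 and lost its call without that library or shNC 2. NFKBIB had 0.63, NFKBID 0.58 and NFKBIZ 0.54, and these were 0.42 without shTPX2 2, 0.52 without shNC 1 and 0.29 without shNC 1. The call was lost without shTPX2 2 for NFKBIB, without shNC 1 or shTPX2 1 for NFKBIZ, and without each library but shNC 2 for NFKBID. TNFAIP3, another feedback inhibitor, measured 13.64 and 8.84 TPM under shNC against 22.29 and 9.08 TPM under shTPX2 and did not meet the criteria. CYLD, a deubiquitinase that restrains the pathway, had a log2 fold change of -0.41 that was -0.23 without shTPX2 2, and it lost the call without that library or shNC 2. The median of the list was 0.11.

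Of 12 AP-1 and C/EBP factors, FOSL1 and FOSB were higher and FOSL2 was lower, and the median log2 fold change was 0.04. FOSL1 measured 35.61 and 24.45 TPM under shNC against 65.81 and 42.72 TPM under shTPX2, a log2 fold change of 0.99 ± 0.30 (SE, adjusted p = 0.579 in edgeR), or 0.62 without shTPX2 1. FOSB had 1.0, which ran from 0.53 without shNC 2 to 1.67 without shNC 1, and FOSL2 had -0.52, or -0.34 without shTPX2 2, where it lost the call. Among 14 regulators of AU-rich mRNAs, ZC3H12A, which encodes the ribonuclease Regnase-1, and KHSRP were higher and 0 were lower, with a median of 0.07. Their log2 fold changes were 0.62 and 0.40, and without shNC 1 and shNC 2, respectively, they were 0.33 and 0.24. ZC3H12A lost the call without shNC 1 or shTPX2 1, and KHSRP kept it only without shNC 1. ZFP36L2, a decay factor that binds AU-rich elements, measured 101 and 62.5 TPM under shNC against 61.4 and 44.6 TPM under shTPX2, and HNRNPD 168 and 147 against 176 and 183 TPM. Neither met the criteria.

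For the shedding of CXCL16, ADAM10 measured 70.6 and 84.0 TPM under shNC against 66.3 and 61.4 TPM under shTPX2, a log2 fold change of -0.16 ± 0.18 (SE). ADAM17 had a log2 fold change of -0.03 ± 0.19 (SE), and its groups overlapped. Of the 4 fitted chemokine-cleaving proteases, ANPEP was lower (log2 fold change -1.77, from -2.88 without shTPX2 1 to -0.58 without shNC 2, with the call lost without shNC 2 or shTPX2 2), at 2.32 TPM or less, and 0 were higher, with a median of -0.56. Among 14 fitted genes of the list of other secreted inflammatory genes, 0 were higher and 1 was lower, with a median of -0.05. The lower one was MMP1, which encodes a collagenase, at 0.61 and 0.57 TPM under shNC against 0.22 and 0.05 TPM under shTPX2. With 13 and 12 counts in shNC against 5 and 1 in shTPX2, MMP1 passed the filter on low counts only through the shNC libraries. Its log2 fold change of -1.95 rests on 1 to 13 counts per library, and was -1.23 without shTPX2 2, where the call was lost, and -3.41 without shTPX2 1. MMP9 measured 2.38 and 0.79 TPM against 0.78 and 0.65 TPM and did not meet the criteria. CSF2, CSF3 and MMP3 of this list had too few counts to be fitted. CSF2 had 4 counts in each shNC library, 26 in shTPX2 1 and 6 in shTPX2 2. CSF3 had 0 counts in each shNC library, 7 in shTPX2 1 and 2 in shTPX2 2, and MMP3 at most 2 in any library.

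Cell type markers are given beside the chemokines. Of 8 fitted epithelial markers, 0 met the criteria, with a median log2 fold change of 0.08. Of 9 fitted markers of other cell types, CDH5, an endothelial cadherin, was higher and PDGFRB of stromal cells was lower at 0.4 TPM or less, with a median of -0.46. PDGFRB had 24 and 20 counts in shNC against 8 and 8 in shTPX2, and passed the filter on low counts only through the shNC libraries. CDH5 measured 14.4 and 18.1 TPM under shNC against 26.7 and 30.5 TPM under shTPX2 (log2 fold change 0.94 ± 0.18, SE, adjusted p = 0.439 in edgeR). The other endothelial genes of the list did not share this rise. PECAM1 measured 5.38 and 14.37 TPM under shNC against 4.20 and 5.92 TPM under shTPX2. Its groups overlapped, with a log2 fold change of -0.79 ± 0.46 (SE), and VWF stayed at or below 0.17 TPM. COL1A1 measured 8.64 and 11.99 TPM under shNC against 5.72 and 8.04 TPM under shTPX2. The part of these markers in the chemokine levels was not tested.

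The genes whose pattern over the 4 libraries was most like that of CXCL1 were found by the root mean square difference of log2 CPM, the counts scaled to the library total, after the mean of each gene had been subtracted. The nearest were FOXJ1 (0.352), KLHDC7A (0.398), SPRR3 (0.424), UGT1A4 (0.485) and KRT4 (0.501). FOXJ1 encodes a transcription factor of ciliated cells, and SPRR3 and KRT4 encode proteins of stratified epithelia. Each was less abundant than CXCL1, with mean TPM in shTPX2 of 4.90, 1.20, 4.19, 0.525 and 36.1 in the same order. UGT1A4 shares exons with other UGT1A genes, so its counts are uncertain. It had 3.08 and 3.16 counts in shNC against 15.42 and 11.42 in shTPX2, and so passed the filter on low counts only through the shTPX2 libraries. SPRR3 was also low, with 9 and 13 counts in shNC against 30 and 50 in shTPX2. Within the family, CXCL2 came 11th by this measure (0.617) and CXCL8 16th (0.658) of all tested genes, whereas CXCL3 was at place 922 and CXCL16 at place 5669. The measure contains the difference between the groups and is a description over 4 libraries.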

How the data were processed

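RNA-seq of 2 shNC and 2 shTPX2 PC9 libraries was analysed from 1 table. The authors deposited an expected count (estimated reads of a gene, not normalized for depth), an FPKM and a TPM for each gene and library. The submitters' processing notes name HISAT2, featureCounts, DESeq2 and GRCh38, whereas the methods name SOAPnuke, HISAT2/Bowtie2 and RSEM or StringTie. Many of the deposited expected counts are not whole numbers. The annotation and strand setting were not given in the sources used here. Mean columns of the authors were used in no test.

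Expected counts were rounded, filtered with filterByExpr (14048 genes) and fitted with edgeR 4.0.16 (TMM, quasi-likelihood, Benjamini-Hochberg adjustment over all tested genes), with limma 3.58.1 (voom) and DESeq2 1.42.0 beside it, in R 4.3.3. The fit was checked on simulated counts. TPM values give levels. Standard errors are the log2 fold change divided by the root of edgeR's F.

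The members and lists were chosen with earlier results of these data known. Named genes are the members, TPX2, fixed receptors, proteases, cytokines and inhibitors, up to 3 genes per list with the smallest p among those whose groups did not overlap in TPM, and the 5 genes nearest to CXCL1. Genes at the criteria beyond these, NFKBIE, BCL3, CCL22, CCL28, CSF2, CSF3 and MMP3 were named after their values were seen. The same holds for further cell type markers, the chromosomal neighbours and the genes in the closing observations. Alternatives were other size factors, filters, tests, pseudocounts, summed paralogs, the replicate number as a block and each library left out. Promoters are RefSeq's, transcripts GENCODE v29.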

Additional observations from a re-analysis of the deposited data

Results flagged for a closer look

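The mean columns that the authors deposited beside the libraries are mostly not the means of the 2 libraries of each group. Only 7.85% of the shNC means and 6.85% of the shTPX2 means came within 0.01 TPM of that value. The authors' mean TPM of CXCL1 is 26.39 for shNC, below both shNC libraries (31.33 and 47.75 TPM), and 97.325 for shTPX2, below both shTPX2 libraries (185.91 and 202.48 TPM). For CXCL8 the means are 51.01 and 84.54 TPM, likewise below both libraries of their group. CXCL16 has 80.1 and 57.1 TPM, which puts the means in the order opposite to CXCL1 and CXCL8. Over all 18134 genes, 56.7% of the shNC means and 70.6% of the shTPX2 means lie outside the range of the 2 libraries by more than 0.01 TPM. Multiplied by 3, every shNC mean is a whole number of hundredths (100%), and so is every shTPX2 mean multiplied by 4 (100%), against 35.1% and 51.5% when multiplied by 2. Which libraries entered these means was not tested, and no value of the report uses them.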

How the results depend on the processing

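The members were chosen on this contrast, so the following ranges describe how far their values move. The log2 fold change of CXCL1 ran from 2.30 to 2.45 over 9 other settings, that of CXCL3 from 0.16 to 0.42, that of CXCL8 from 1.09 to 1.20, and that of CXCL16 from -0.11 to 0.03. CXCL2 had 1.03 on the log2(TPM + 1) scale, which understates changes of weakly expressed genes. Leaving out 1 library gave 2.18 to 2.73 for CXCL1, 1.30 to 1.61 for CXCL2, 0.18 to 0.67 for CXCL3, 0.85 to 1.60 for CXCL8 and -0.18 to 0.23 for CXCL16. It gave 0 to 23 genes at an adjusted p under 0.05 (23 without shNC 1 and 11 without shNC 2), 495 to 1546 genes higher and 523 to 1969 lower at the study's criteria (lowest without shTPX2 2, highest without shNC 1), and 10 to 21 higher and 3 to 24 lower among the listed genes. DESeq2 called 111 genes at an adjusted p under 0.05, against 0 for edgeR. With library size only, 578 genes were higher and 1445 lower, against 876 and 1122, so that the higher share of calls was 28.6% in place of 43.8%, and 10 listed genes were lower in place of 6. At an unadjusted p under 0.05 in edgeR, 3 listed genes were lower. With the replicate block the log2 fold changes were 2.45 for CXCL1, 1.45 for CXCL2 and 1.20 for CXCL8, and 13 listed genes were lower. The shared replicate numbers are numbers alone, and same-numbered libraries deviated with a Pearson's r of 0.182 across genes, which are not independent. Apart from the construction of the alternatives, the cause of these shifts was not tested. CXCL5 and CXCL6 were not summed, since the expression of CXCL6 was not analysed here. CXCL5 entered the fit only without a filter on low counts. Counts were lowest for CXCL3 and CXCL5, and the part of depth in the spread of CXCL3 was not separated from that between libraries.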

Other observations

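Several secreted proteins of inflamed epithelium differed more between the shNC libraries than between the groups. SAA1, an acute phase protein, was at 113 TPM in shNC 1 but at 2168 TPM in shNC 2, with 1068 and 1255 TPM in the shTPX2 libraries between them. S100A8, a subunit of calprotectin, measured 58.8 and 2044 TPM under shNC against 415 and 627 TPM under shTPX2, and its partner S100A9 measured 1072 and 7807 TPM against 3261 and 4654 TPM. LCN2, an iron-scavenging lipocalin, measured 2234 and 10751 TPM under shNC against 8172 and 6452 TPM under shTPX2. CXCL1 and CXCL8 were also lower in shNC 1 than in shNC 2, but both of their shNC values lay below both shTPX2 values.

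CXCL17, a mucosal chemokine, was the 1 other CXC chemokine with enough counts for a fit. It measured 23.03 and 53.8 TPM under shNC against 11.24 and 72.24 TPM under shTPX2, so that the shTPX2 libraries enclosed the shNC libraries, and its log2 fold change was 0.24 ± 0.79 (SE).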
